A study of Caenorhabditis elegans with 15 samples.

Results

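Whole adults of Caenorhabditis elegans labelled as a knock-out of gld-2 (group gld2) were compared with wild-type adults (group wt) by counting RNA reads per gene. Each group held 3 libraries, so 6 of the 15 libraries of the study enter the comparison, and the other 9 belong to gld2 double mutants that served here only to estimate the spread between libraries. The animals of both groups were picked by hand 24 h after the middle of the fourth larval stage, and total RNA was extracted from whole worms with Trizol, depleted of ribosomal RNA with reagents designed for mammals (human, mouse and rat), and made into strand-specific libraries. The labels give neither the allele nor the strain, and they do not say whether the replicates came from separate cultures, so the p-values measure the spread between these libraries, which may be technical. RNA of all tissues is mixed in such samples, and fewer cells of a type and less RNA per cell cannot be told apart.

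GLD-2 is a cytoplasmic poly(A) polymerase of the germ line. Together with RNA-binding partners it lengthens the poly(A) tails of chosen mRNAs, which as a rule stabilises them or activates their translation, and deadenylases act in the opposite direction. In the hermaphrodite gonad the enzyme is known for promoting entry into meiosis and the formation of gametes, and the title of the study places the comparison in early oogenesis. A hermaphrodite makes sperm first and oocytes afterwards, so an adult of this age normally carries an oocyte-producing germ line.

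The gld2 libraries held 39445449, 36424263 and 36200616 counts, and the wt libraries 34184998, 31567477 and 38602551. Nuclear ribosomal RNA took 1.85%, 1.74% and 4.30% of the counts in gld2 and 7.04%, 2.11% and 2.38% in wt. Mitochondrial genes took 6.64%, 6.43% and 7.86% in gld2 and 4.81%, 4.6% and 5.3% in wt. Levels are given as CPM, counts scaled to a common library size after each library size was multiplied by its factor (trimmed mean of M values, TMM), in the order of replicates 1 to 3. Changes are fitted log2 fold changes of gld2 over wt with their standard errors (SE) from edgeR's quasi-likelihood test, and the words rose and fell are used only where the Benjamini-Hochberg adjusted p over all tested genes was under 0.05. Positions are those of genome build WBcel235.

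The labelled gene was examined in every library. Transcripts of gld-2 (chromosome I, 6369748 to 6386194) stood at 53, 54.6 and 53.5 CPM in gld2, against 247, 201 and 185 CPM in wt (log2 change -1.98, SE 0.18, adjusted p = 7.62e-07). All gld2 libraries lay below all wt libraries. A deletion inside a gene leaves reads from the rest of it, so these counts check the label but do not show that the product is lost. The gene overlaps klu-2 on the other strand, and whether reads were counted by strand is not given in the sources used here.

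Of 16888 tested genes, 4869 (28.8%) rose and 3404 (20.2%) fell in gld2, and 8615 did not pass the test. Large changes were mostly upward: 3282 genes (19.4%) rose by at least 2-fold and 711 (4.21%) fell by at least 2-fold. On the TMM-scaled levels, 5592 genes (33.1%) had all gld2 libraries above all wt libraries and 4029 (23.9%) had all of them below. With levels scaled to total counts alone these were 6877 and 2600 genes. The direction went with the level of the gene. Among the 3382 genes with a mean of 2 to 10 CPM over the 6 libraries, 42.4% rose and 9.34% fell, whereas among the 1123 genes with at least 200 CPM 15% rose and 50.2% fell. At 0.5 to 2 CPM 37.2% rose and 5.71% fell, at 10 to 50 CPM 27.5% rose and 31.3% fell, and at 50 to 200 CPM 14.9% rose and 47.9% fell. Weak genes can pass the filter on low counts through the mutant libraries alone, and the mean level includes the gld2 libraries. Of the 3455 tested genes under 0.5 CPM, 719 had at most 3 counts over the wt libraries. The shares by level are therefore a description as well. Because the direction went with the level, the shares of most lists below are set beside those of the level range that holds the median member. Scaling the libraries on somatic genes instead (lists of muscle, intestine, neuron and collagen genes) moved the median log2 fold change of all tested genes to 0.25, against 0.14 with TMM. With somatic scaling the higher share of the called genes was 70.6%, against 58.9% with TMM, and 5168 genes rose and 2154 fell.

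**Figure D1:**
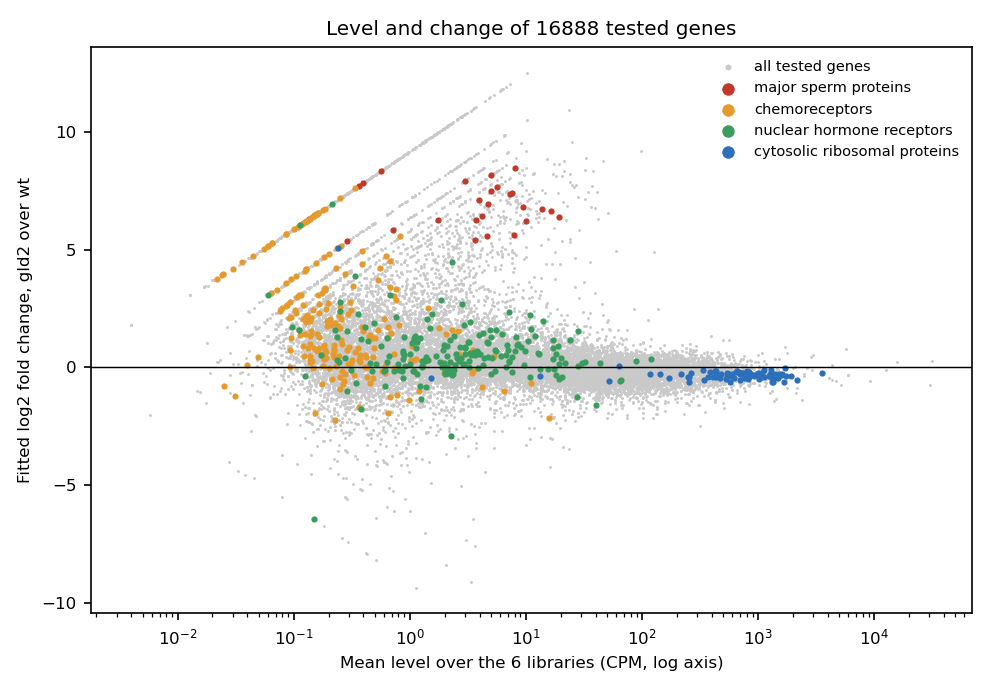
Mean level over the 6 libraries (CPM, log axis) against the fitted log2 fold change of gld2 over wt for all 16888 tested genes, with 4 gene families in colour. Major sperm proteins lie far above 0, chemoreceptors and nuclear hormone receptors lie at low levels with more points above 0 than below, and cytosolic ribosomal proteins lie at high levels just below 0; the slanted lines of points at the upper left are genes with 0 or few counts in wt, whose fitted change depends on a prior count.

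By RNA counts, a set of genes was all but silent in wt and detected in gld2. With at most 3 counts over the wt libraries together and at least 1 CPM on average in gld2, 339 genes met this description, and 171 of them had no count in wt. They held 0.121% to 0.175% of the counts of a gld2 library. The set was defined on these counts and is a description with no test of its own. Of its members 315 code for proteins, 21 are pseudogenes, and 250 have only a sequence name. Among the named families with at least 3 such members were the irld genes with 7 and the msp, spe and ssp genes with 4 each.

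These silent genes were spread unevenly over the chromosomes. They made up 4.17% of the tested genes of chromosome IV, against 2.01% over all tested genes. None of the 2176 tested genes of the X chromosome was in the set, while chromosome I held 67, II held 65, V held 62 and III held 24. The reverse case, at most 3 counts over the gld2 libraries and at least 1 CPM in wt, was met by 9 genes. They were F56F4.8, Y116A8C.19, Y5H2B.3, ZK899.6, ccch-2, fbxb-63, fbxb-96, sdz-9 and txdc-12.2, named here after their values were seen. The gene txdc-12.2 on the X chromosome had 1 count over the gld2 libraries, against 643 counts over the wt libraries.

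The larger changes were also spread unevenly, given here as a description. Of the tested genes of the X chromosome 10.9% rose by at least 2-fold, against 19.4% of all tested genes, and 6.30% fell by at least 2-fold, against 4.21%. Chromosome IV had the highest share of genes that rose by at least 2-fold, at 24.7%, and chromosome III the lowest share among the autosomes, at 15.5%. For declines of any size the order was another: 25.3% of tested genes on chromosome I and 26% on chromosome III fell, against 13.1% on the X chromosome. The chromosomes differ in level, with medians of 11.8 CPM on chromosome I, 13.3 CPM on III and 3.28 CPM on X. Of all genes at 10 to 50 CPM 31.3% fell, and of those at 2 to 10 CPM 9.34% fell. With somatic scaling the genes that fell numbered 423 on chromosome I and 386 on chromosome III, against 696 and 667 with TMM.

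**Figure D2:**
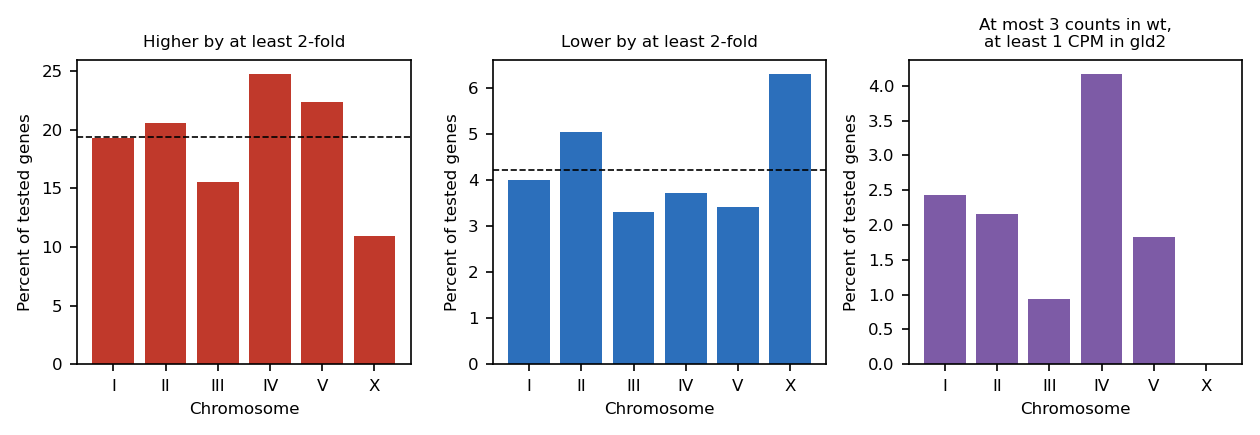
Percent of tested genes per chromosome that rose by at least 2-fold in gld2 (left), fell by at least 2-fold (middle) and had at most 3 counts in wt with at least 1 CPM in gld2 (right); dashed lines mark the share over all tested genes, 19.4% and 4.21%. The X chromosome has the lowest bar on the left at 10.9%, the highest in the middle at 6.30% and none on the right, and chromosome IV has the highest bar on the right at 4.17%.

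Sperm genes form the best known part of the increase. All 26 tested major sperm protein genes, which encode the cytoskeletal and signalling protein of nematode sperm, and all 9 tested nspd genes, which encode small sperm peptides, rose. The summed level of the 31 annotated major sperm protein genes was 279 to 309 CPM in gld2 and 0.797 to 6.42 CPM in wt, and reads of such near-identical copies can be shared between them. Of 9 listed sperm markers, 8 were tested and all 8 rose, with a summed level of 119.8 to 159 CPM in gld2 and 3.41 to 5.10 CPM in wt. The marker msp-10 had no count in wt. Of the 26 tested major sperm protein genes 8 had at most 3 counts over the wt libraries together. Such genes can pass the filter on low counts through the mutant libraries alone. That all tested members of these lists rose is therefore a description. The summed level of the 31 annotated major sperm protein genes includes those that were not tested. The part that the number of sperm-forming cells has in the changes described in the following paragraphs was not tested.

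Several protein kinase genes were near silent in wt as well. The 9 annotated ttbk genes resemble tau tubulin kinases, and all 8 that were tested rose. Genes near 0 in wt can pass the filter on low counts through the mutant libraries alone. The ttbk list was drawn up after values had been seen. So were the lists of glycolysis, glutamine, kin, cest, snf, nep, irld, catp, cilium, p38 and RNA polymerase II genes. The shares of all these lists are a description. Transcripts of ttbk-8.2 (chromosome IV, 5631928 to 5633379) stood at 33.1, 44.8 and 49.5 CPM in gld2, against 0, 0.0348 and 0.22 CPM in wt (log2 change 8.76, SE 0.37, adjusted p = 6.62e-11). Those of ttbk-8.1 (chromosome IV, 13472311 to 13474019) stood at 36.1, 41.4 and 46.4 CPM in gld2, against 0.0664, 0.0348 and 0.303 CPM in wt, and those of ttbk-4 (chromosome IV, 10073404 to 10075134) at 19.6, 23.3 and 25.8 CPM in gld2, against 0, 0.0348 and 0.165 CPM in wt. The groups did not overlap for any of these kinases, and each had under 0.5 CPM in every wt library. Of the 23 tested kin genes, which encode kinases of several kinds, 9 rose (39.1%) and 4 fell (17.4%), against 42.4% and 9.34% of genes at 2 to 10 CPM. The number that fell was 2 with somatic scaling, without wt replicate 1 and without the libraries above 4% ribosomal RNA. The median log2 fold change of the list, 0.32, was 0.10 without wt replicate 1, 0.01 without gld2 replicate 1 and 0.00 with a replicate block. The gene kin-26 on chromosome IV was not detected in wt and had 2.63, 5.04 and 5.81 CPM in gld2, at least 140.1-fold higher than the level that 3 counts over the wt libraries would give. Its neighbour in name kin-24 had 7.3, 9.7 and 13.2 CPM in gld2 and 1 count in wt, a ratio of 945 (95% counting interval 169 to 37356).

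Several regulators known from male or sperm-forming germ cells rose as well. The Argonautes alg-3 and alg-4, which act with small RNAs on spermatogenesis genes, stood at 26.4, 41 and 46.8 CPM in gld2, against 0.0664, 0 and 0.523 CPM in wt (alg-3, log2 change 7.42, SE 0.5, adjusted p = 1.5e-07) and at 40.4, 50.2 and 65.5 CPM in gld2, against 0.0332, 0.174 and 0.496 CPM in wt (alg-4, log2 change 7.68, SE 0.38, adjusted p = 4.38e-09). The gene snpc-1.3 encodes a subunit of a complex that activates small RNA genes and is known for its role in the male germ line. It stood at 30.6, 40.3 and 41.7 CPM in gld2, against 2.22, 1.84 and 1.32 CPM in wt (log2 change 4.39, SE 0.2, adjusted p = 1.15e-12), whereas its relatives snpc-1.2 (log2 change -0.36, SE 0.07) fell and snpc-1.1 did not pass the test (log2 change -0.09, SE 0.06, adjusted p = 0.276). The decline of snpc-1.2 did not pass the test with somatic scaling. The gene taf-11.2, a relative of a general transcription factor subunit, rose to 185, 176 and 178 CPM in gld2, against 40.1, 39.5 and 52.8 CPM in wt (log2 change 2.03, SE 0.09, adjusted p = 1.23e-12). The gene fog-1, which specifies the sperm fate, rose less (log2 change 0.77, SE 0.15, adjusted p = 0.000262). It was the only member that rose among 25 listed RNA regulators of the germ line. Of these regulators 19 fell (76%, against 50.2% of genes at 200 CPM or more).

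In energy metabolism, related genes for the same step changed by different amounts. The ATP carriers of the mitochondrial inner membrane are encoded by ant-1.1 to ant-1.4. Transcripts of ant-1.3 (chromosome IV, 9708168 to 9709305) stood at 33.2, 40.5 and 49.8 CPM in gld2, against 0.266, 0.244 and 0.413 CPM in wt (log2 change 7.02, SE 0.23, adjusted p = 2e-13), and ant-1.4 (chromosome IV, 8459178 to 8460308) stood at 13.3, 24.4 and 25.6 CPM in gld2, against 0, 0 and 0.386 CPM in wt (log2 change 7.14, SE 0.56, adjusted p = 4.53e-07). The main carrier ant-1.1 had 1483 ± 58.7 CPM in gld2 and 1840.2 ± 153 CPM in wt (SD, n = 3 each) and fell by 0.31 on the log2 scale (adjusted p = 0.00305), a call that was lost with somatic scaling and without the libraries above 4% ribosomal RNA. The phosphofructokinase gene pfk-1.2, for a rate-setting step of glycolysis, stood at 10.6, 18 and 19.5 CPM in gld2, against 0.0332, 0 and 0.0826 CPM in wt (log2 change 8.47, SE 0.38, adjusted p = 9.04e-13). Its relative pfk-1.1 also rose, by 0.69 (SE 0.07), and no wt library overlapped with gld2 for either gene.

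Other enzymes of central metabolism gave similar values. For phosphoenolpyruvate carboxykinase, an enzyme of gluconeogenesis, pck-3 stood at 11.5, 12 and 16 CPM in gld2, against 0.0996, 0.0348 and 0.331 CPM in wt (log2 change 6.27, SE 0.34, adjusted p = 9.88e-12), while pck-1 rose by 0.35 and pck-2 fell by 0.23 (adjusted p = 0.0373, lost with somatic scaling and on leaving out any library other than wt replicate 1). For cytochrome c, the electron carrier, cyc-2.2 stood at 10.7, 11.1 and 14.8 CPM in gld2, against 0.0996, 0 and 0.0551 CPM in wt (log2 change 7.77, SE 0.4, adjusted p = 4.3e-12), and cyc-2.1, at 313 ± 19.8 CPM in gld2 and 303 ± 14.7 CPM in wt, did not pass the test (adjusted p = 0.604). For glutamine synthetase, gln-2 stood at 12.57, 17.6 and 21.1 CPM in gld2, against 0, 0.0696 and 0.303 CPM in wt (log2 change 6.94, SE 0.42, adjusted p = 1.1e-09), whereas gln-5 fell by 1.22 and gln-6 by 0.82. The glutaminase gene glna-3, for the enzyme of the reverse reaction, rose by 2.71. Over 46 tested genes of glycolysis, the citric acid cycle and ATP carriage, 13 rose (28.3%) and 16 fell (34.8%), against 28.8% and 20.2% of all genes and 14.9% and 47.9% of genes at 50 to 200 CPM. The glycolytic genes aldo-2 (aldolase), hxk-1 (hexokinase), pgk-1 (phosphoglycerate kinase) and pyk-1 (pyruvate kinase) fell by 1.08, 0.91, 0.81 and 0.8 on the log2 scale. With somatic scaling, and likewise without the libraries above 4% ribosomal RNA, 10 of the 46 fell.

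**Figure D3:**
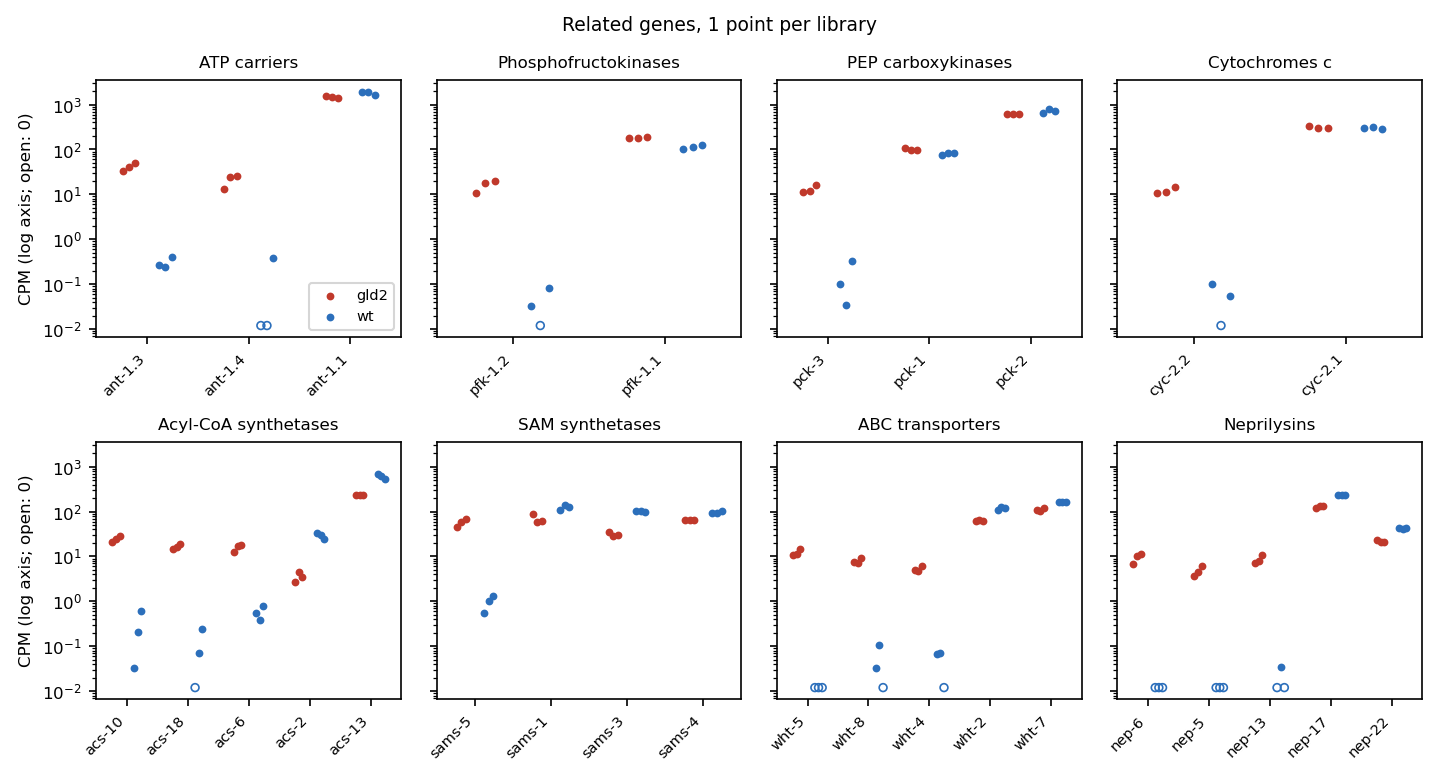
Level in each library (CPM, log axis, 1 point per library in the order of replicates 1 to 3; open points are at 0) of related genes in 8 families, gld2 left of wt for each gene. The left gene of each panel lies at 1.35 CPM or less in every wt library, and all its gld2 points lie above its wt points.

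Fatty acid metabolism had members of both kinds. Of 42 acyl-CoA synthetase and dehydrogenase genes, all tested, 20 rose (47.6%) and 10 fell (23.8%), against 27.5% and 31.3% of genes at 10 to 50 CPM. The synthetases, which activate fatty acids for further use, included acs-10 at 20.8, 24.2 and 28 CPM in gld2, against 0.0332, 0.209 and 0.606 CPM in wt (log2 change 6.32, SE 0.36, adjusted p = 1.25e-09), and acs-18 at 14.3, 16.08 and 19.1 CPM in gld2, against 0, 0.0696 and 0.248 CPM in wt (log2 change 7.12, SE 0.37, adjusted p = 2.65e-11). The gene acs-15 had 2 counts over the wt libraries and 7.23, 7.09 and 9.12 CPM in gld2, a ratio of 369 (95% counting interval 102 to 3055). The dehydrogenase genes acdh-8 and acdh-5, for the first step of β-oxidation, rose by 6.13 and 5.2 on the log2 scale. In the other direction acs-2, known as a fasting-induced mitochondrial synthetase, fell to 2.75, 4.4 and 3.53 CPM in gld2, against 32.9, 29.8 and 24.2 CPM in wt (log2 change -3.02, SE 0.27, adjusted p = 1.75e-08). The more abundant acs-13 fell by 1.4 and acs-1 by 0.96. The peroxisomal oxidase genes acox-1.2 and acox-3 rose by 1.85 and 1.58.

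Fatty acid elongases divided in the same way. The gene elo-7 was not detected in wt and had 1.94, 3.18 and 3.09 CPM in gld2, at least 85.8-fold higher than 3 counts over the wt libraries would give, and elo-8 rose by 3.18. The elongases elo-2, which acts on palmitic acid, and elo-5, which serves branched-chain fatty acids, fell to 27.6, 32.6 and 28.9 CPM (elo-2) and 54.4, 47.2 and 57.6 CPM (elo-5) in gld2, against 100.98, 127 and 132 CPM (elo-2) and 111, 157 and 176 CPM (elo-5) in wt. Among all 16 desaturases and elongases 4 rose (25%) and 6 fell (37.5%), against 14.9% and 47.9% of genes at 50 to 200 CPM. The member with the highest level, fat-1, did not pass the test (log2 change 0.04, SE 0.08, adjusted p = 0.674).

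S-adenosylmethionine, the methyl donor of the cell, is made by the synthetases sams-1, sams-3, sams-4 and sams-5. Transcripts of sams-5 stood at 44.1, 58.4 and 66.8 CPM in gld2, against 0.564, 1.01 and 1.35 CPM in wt (log2 change 5.83, SE 0.27, adjusted p = 1.62e-10), with no overlap. The gene sams-3 fell to 34.8, 28.8 and 29.9 CPM in gld2, against 103.9, 104.22 and 100.2 CPM in wt (log2 change -1.72, SE 0.1, adjusted p = 1.21e-11), and sams-4 fell by 0.56. The decline of sams-1, by 0.86 (adjusted p = 0.0179), did not pass the test without gld2 replicate 2, without gld2 replicate 3, without wt replicate 2 or without the libraries above 4% ribosomal RNA. Of 27 tested genes of the propionate and methionine pathways 13 fell (48.1%) and 4 rose (14.8%). These shares lie near those of all genes at 50 to 200 CPM, of which 47.9% fell and 14.9% rose. Among the 27, ahcy-1, for the enzyme that clears S-adenosylhomocysteine, fell (log2 change -0.73, SE 0.18, adjusted p = 0.006, lost without the libraries above 4% ribosomal RNA). The cystathionine β-synthase gene cbs-2 rose (log2 change 3.18, SE 0.33, adjusted p = 1.11e-07).

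Transporters had members that were silent in wt and members that fell. The white-type ABC transporter gene wht-5 (chromosome IV, 12337577 to 12340458) was not detected in wt and had 10.5, 11.6 and 14.5 CPM in gld2, at least 385-fold higher than 3 counts over the wt libraries would give. Its relatives wht-8, wht-4 and wht-6 rose by 7.43, 6.84 and 3.64 on the log2 scale, while wht-2 and wht-7 fell by 0.87 and 0.59. Of the ABC family as a whole 18 of 52 tested genes rose and 11 fell, shares of 34.6% and 21.2% that lie near those of all genes. For the sodium pump, the β subunit gene nkb-2 had 7.47, 10.2 and 7.84 CPM in gld2 and 2 counts over the wt libraries, a ratio of 405 (95% counting interval 111.78 to 3348). The other β subunit genes nkb-1 (log2 change -0.66, SE 0.28, adjusted p = 0.0703) and nkb-3 (log2 change -0.43, SE 0.14, adjusted p = 0.0164) were on the lower side, of which only the decline of nkb-3 passed the test, and it was lost with somatic scaling, without gld2 replicate 3, without wt replicate 2 and without the libraries above 4% ribosomal RNA. The α subunit gene eat-6 did not pass the test (log2 change -0.02, SE 0.08, adjusted p = 0.844). A related pump gene, catp-4, stood at 44, 53.1 and 55.2 CPM in gld2, against 2.39, 1.43 and 2.26 CPM in wt (log2 change 4.64, SE 0.18, adjusted p = 1.85e-12). The SLC6 transporter genes snf-2 and snf-5 rose by 6.4 and 5.49, and snf-10, known from work on sperm activation, rose by 1.95, whereas snf-1 fell by 1.0.

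Neprilysins, membrane-bound metalloproteases that cut peptides, rose in 12 of 22 tested genes (54.5%) and fell in 4 (18.2%). Of all genes at 2 to 10 CPM 42.4% rose and 9.34% fell. The neprilysin list was drawn up after values had been seen. The genes nep-6 (chromosome II, 3416828 to 3420672) and nep-5 (chromosome II, 5488144 to 5490638) were not detected in wt. In gld2, nep-6 had 6.89, 10.3 and 11.5 CPM and nep-5 had 3.59, 4.4 and 6.2 CPM, at least 299.5-fold and at least 148-fold higher than 3 counts over the wt libraries would give. The gene nep-6 overlaps nep-11 on the other strand. The gene nep-13 (chromosome II, 3282653 to 3287174) had 1 count in wt and 7.23, 7.76 and 11 CPM in gld2, a ratio of 816 (95% counting interval 146 to 32272). The genes nep-8 and nep-10, on the same chromosome, rose by 4.82 and 4.52. The more abundant nep-17 fell to 121, 131 and 135 CPM in gld2, against 236, 239 and 229 CPM in wt (log2 change -0.86, SE 0.17, adjusted p = 0.00109), and nep-22 fell by 0.95. The family summed to 270.2 to 300.1 CPM in gld2 and 353 to 361 CPM in wt. With somatic scaling 2 of the 4 declines were called, and likewise without gld2 replicate 2 or 3, without wt replicate 2 or 3, and without the libraries above 4% ribosomal RNA. The decline of nep-1 (log2 change -0.26, SE 0.1, adjusted p = 0.0485) held on leaving out gld2 replicate 1 and was lost on leaving out any other single library.

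The irld genes encode proteins with the ligand-binding L domain of insulin and EGF receptors. Of 56 annotated genes only 21 passed the filter on low counts, and 14 of these rose and none fell. A gene can pass that filter through the mutant libraries alone, so the share among tested genes is a description. The genes irld-3 and irld-57, both on chromosome V and not detected in wt, had 2.27, 3.15 and 2.67 CPM (irld-3) and 1.27, 1.36 and 1.86 CPM (irld-57) in gld2, at least 85.3-fold and at least 47-fold higher than 3 counts over the wt libraries would give. The gene irld-14 had 2 counts in wt and 3.47, 6.38 and 7.26 CPM in gld2, a ratio of 267 (95% counting interval 73.6 to 2208). The family summed to 28 to 39.7 CPM in gld2 and 3.55 to 3.83 CPM in wt, so all gld2 libraries lay above all wt libraries.

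Detoxification genes more often rose than fell. Of 63 tested cytochrome P450 genes, whose products oxidise foreign and endogenous lipophilic compounds, 25 rose and 3 fell, and of 63 tested UDP-glucuronosyltransferase genes, whose products attach sugars to such compounds, 25 rose and 3 fell. The shares were 39.7% higher and 4.76% lower for each family, against 28.8% and 20.2% of all genes and 42.4% and 9.34% of genes at 2 to 10 CPM, the range of their median members. The higher share was thus no larger than among all genes of that level. Of the UDP-glucuronosyltransferase genes 5 fell without wt replicate 1, without the libraries above 4% ribosomal RNA, and without ribosomal RNA and mitochondrial genes. The median log2 fold change was 0.92 for P450 genes and 0.50 for UDP-glucuronosyltransferase genes, against 0.14 over all tested genes and 0.41 at 2 to 10 CPM. Transcripts of cyp-35A2 stood at 76.1, 89.5 and 78.5 CPM in gld2, against 27.2, 32.3 and 40.5 CPM in wt (log2 change 1.29, SE 0.15, adjusted p = 4.15e-06), and those of cyp-34A9 at 7.23, 13.8 and 8.67 CPM in gld2, against 1.83, 1.39 and 1.27 CPM in wt (log2 change 2.73, SE 0.32, adjusted p = 1.24e-06). The gene ugt-41 stood at 27.7, 35.8 and 30.9 CPM in gld2, against 3.98, 5.22 and 7.44 CPM in wt (log2 change 2.49, SE 0.22, adjusted p = 4.09e-07). For all of these genes the gld2 libraries lay above the wt libraries, while the P450 gene with the highest level, cyp-31A2, did not pass the test (log2 change -0.15, SE 0.09, adjusted p = 0.163).

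Of 31 tested carboxylesterase genes (cest) 16 rose (51.6%) and 1 fell, against 42.4% and 9.34% of genes at 2 to 10 CPM. The list was drawn up after values had been seen, so its shares are a description. Without wt replicate 1, 2 of its members fell. The genes cest-1.1 and cest-1.2 on chromosome V stood at 9.77, 13.2 and 12.29 CPM in gld2, against 0.0332, 0 and 0.11 CPM in wt (cest-1.1) and at 19.6, 14.2 and 15.4 CPM in gld2, against 6.01, 5.33 and 5.81 CPM in wt (cest-1.2). Of 44 tested glutathione S-transferase genes 14 rose (31.8%) and 6 fell (13.6%), against 37.2% and 5.71% of genes at 0.5 to 2 CPM, and 3 fell with somatic scaling. Among them gst-10 was higher (log2 change 1.82, SE 0.31, adjusted p = 0.000405) and gst-1, the most abundant, was lower (log2 change -0.36, SE 0.07, adjusted p = 0.000322, lost only with somatic scaling among the alternatives). Among 34 tested short-chain dehydrogenase genes 16 rose (47.1%) and 5 fell (14.7%), against 27.5% and 31.3% of genes at 10 to 50 CPM, and 3 fell with somatic scaling, without wt replicate 2 and without the libraries above 4% ribosomal RNA. The X-linked genes dhs-26 and dhs-25 moved in opposite directions, with dhs-26 at 47.4, 93.5 and 106 CPM in gld2, against 0.531, 0.522 and 0.358 CPM in wt (log2 change 7.46, SE 0.38, adjusted p = 1.9e-08) and dhs-25 at 33.8, 47.9 and 55.2 CPM in gld2, against 130.4, 243 and 238 CPM in wt (log2 change -2.16, SE 0.34, adjusted p = 0.000302). The gene dhs-26 overlaps ZK816.1 on the other strand.

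Nuclear hormone receptors, ligand-gated transcription factors that include regulators of detoxification and fat metabolism, rose in 71 of 191 tested genes and fell in 9. The shares were 37.2% higher and 4.71% lower, against 28.8% and 20.2% of all genes and 42.4% and 9.34% of genes at 2 to 10 CPM, and the median log2 fold change was 0.50, against 0.41 at that level. The higher share was no larger than among genes of that level. The gene nhr-42 stood at 15.6, 18.5 and 20.2 CPM in gld2, against 4.55, 3.17 and 3.88 CPM in wt (log2 change 2.22, SE 0.18, adjusted p = 2.77e-09), and nhr-11 and nhr-105 rose by 2.36 and 1.99 on the log2 scale. The gene nhr-114, known for its role in the response to diet and in germline health, fell to 25.6, 15.7 and 19.3 CPM in gld2, against 51.2, 65.2 and 65.6 CPM in wt (log2 change -1.58, SE 0.26, adjusted p = 0.000182). The receptor with the highest level, nhr-66, rose by 0.35.

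**Figure D4:**
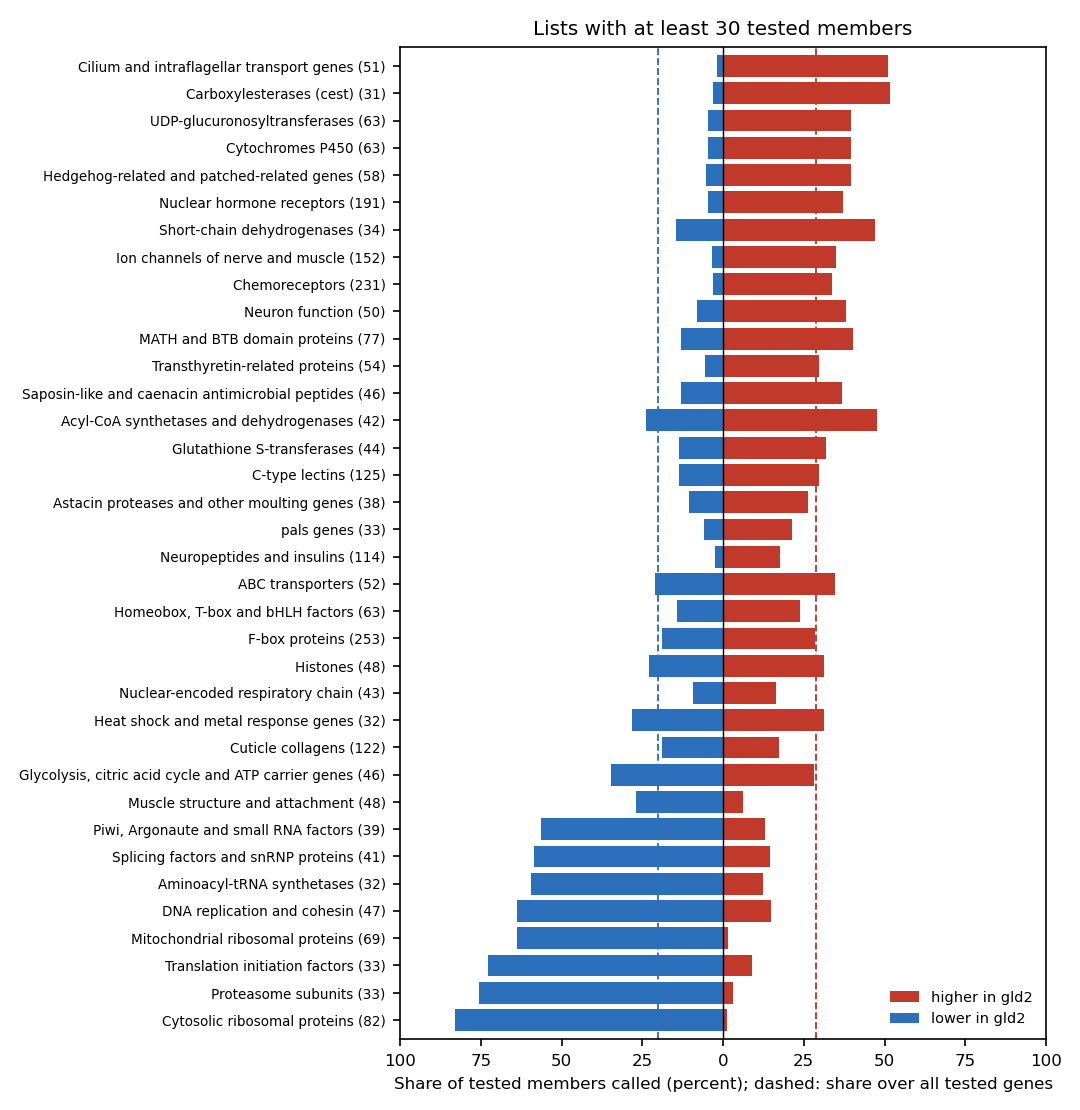
Share of tested members that rose (right of 0) or fell (left of 0) in gld2 for every list with at least 30 tested members, whose number stands in parentheses; dashed lines mark 28.8% and 20.2%, the shares over all tested genes. The P450, UDP-glucuronosyltransferase, nuclear hormone receptor and ion channel lists have left bars of 3.29% to 4.76%, and the ribosomal, proteasome, initiation factor, replication and splicing lists have left bars of 58.5% to 82.9%.

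Genes of the nervous system lie mostly at low levels. Of 152 tested ion channel genes 53 rose (34.9%) and 5 fell (3.29%), with a median log2 fold change of 0.59, against 37.2%, 5.71% and the same median of 0.59 for all genes at 0.5 to 2 CPM. The number that fell was 3 without gld2 replicate 2 or wt replicate 1, and 2 without gld2 replicate 3, without wt replicate 3 or without the libraries above 4% ribosomal RNA. The ligand-gated channel gene lgc-40 stood at 20.4, 22.9 and 17.7 CPM in gld2, against 1.13, 1.81 and 2.75 CPM in wt (log2 change 3.4, SE 0.24, adjusted p = 1.14e-09), and the potassium channel gene twk-2 at 15.6, 14 and 11.6 CPM in gld2, against 1.59, 1.43 and 2.37 CPM in wt (log2 change 2.92, SE 0.24, adjusted p = 3e-09). The calcium channel gene unc-2, which triggers transmitter release, stood at 29.6, 36.1 and 37.8 CPM in gld2, against 10.3, 7.48 and 7.85 CPM in wt (log2 change 2.02, SE 0.16, adjusted p = 4.13e-09), though it overlaps 4 annotated genes on the other strand. Of 50 tested neuron function genes 19 rose (38%) and 4 fell (8%), against 42.4% and 9.34% of genes at 2 to 10 CPM, among them unc-10 and nrx-1, for scaffold and adhesion proteins of the synapse, which rose by 1.9 and 1.76. Of 146 neuropeptide and insulin genes 32 were not tested, 20 rose (17.5% of those tested) and 3 fell (2.63%), against 37.2% and 5.71% of genes at 0.5 to 2 CPM, with ins-37 higher (log2 change 4.48, SE 0.4, adjusted p = 1.35e-08) and flp-6 lower (log2 change -2.07, SE 0.26, adjusted p = 1.61e-06). With the filter of 1 CPM in at least 3 libraries 13 of these neuropeptide genes rose. Of the 8 neuronal markers 3 rose (egl-3, rgef-1 and unc-104) and snb-1 fell, and they summed to 97.9 to 103.5 CPM in gld2 and 77.6 to 102.7 CPM in wt; the part of neuronal RNA in these changes was not tested.

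Chemoreceptor genes, which encode the odorant and pheromone receptors of sensory neurons, are annotated in 1309 copies, of which 1078 did not pass the filter. Of the others 78 (33.8%) rose and 7 (3.03%) fell, against 24.8% and 1.91% of genes under 0.5 CPM. The count depended on the genes and libraries admitted, with 32 higher when only the 6 libraries were fitted and 20 with the filter of 1 CPM in at least 3 libraries, and 38 of the tested genes had no count in wt. Leaving out single libraries, or both libraries above 4% ribosomal RNA, left as few as 3 that fell. All 1309 genes summed to 177 to 205 CPM in gld2 and 120.02 to 142.01 CPM in wt, without overlap. The 3 members that the naming rule picked were lower. Transcripts of sri-40 stood at 8.43, 4.15 and 4.75 CPM in gld2, against 24.2, 26.6 and 26.9 CPM in wt (log2 change -2.16, SE 0.42, adjusted p = 0.000727), and those of srv-1 fell by 1.01.

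Genes of cilia, the sensory endings of neurons, rose in 26 of 51 tested members (51%) and fell in 1. Of all genes 28.8% rose and 20.2% fell, and of genes at 0.5 to 2 CPM 37.2% and 5.71%. The ciliary list was drawn up after values had been seen, so its shares are a description. Without gld2 replicate 1, 2 of its members fell. Transcripts of che-3, for the heavy chain of the ciliary dynein, stood at 9.17, 11.4 and 13.7 CPM in gld2, against 2.96, 1.25 and 2.84 CPM in wt (log2 change 2.27, SE 0.24, adjusted p = 1.04e-07), and those of mks-5, for a protein of the transition zone at the base of the cilium, at 3.61, 4.22 and 5.14 CPM in gld2, against 0.465, 0.139 and 0.193 CPM in wt (log2 change 4.02, SE 0.39, adjusted p = 4.65e-08). The gene ift-139, for an intraflagellar transport protein, rose by 3.43. The transport gene osm-1 fell to 9.34, 10.1 and 10.8 CPM in gld2, against 16.3, 18.3 and 18.1 CPM in wt (log2 change -0.81, SE 0.13, adjusted p = 4.66e-05), while osm-3, for the ciliary kinesin, rose by 0.78. The regulator of the ciliary genes, daf-19, rose by 0.46 (SE 0.13). The list summed to 209 to 222 CPM in gld2 and 151 to 164 CPM in wt. Among the markers of the male soma, which include ciliated male neurons, 7 of 12 were tested, and her-1, klp-6, lov-1, mab-3 and try-5 rose, with cwp-1 and dmd-3 at 0 in wt. These 12 markers summed to 7.48 to 8.54 CPM in gld2 and 1.185 to 2.297 CPM in wt, 8 of them lay under 1 CPM in all 6 libraries, and their part in the ciliary changes was not tested.

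Hedgehog-related and patched-related genes, which in this animal serve the epidermis and glia, rose in 23 of 58 tested genes (39.7%) and fell in 3 (5.17%), against 37.2% and 5.71% of genes at 0.5 to 2 CPM. The number that fell was 6 without gld2 replicate 1 and with no filter, and 5 without wt replicate 1 and with DESeq2. The glial gene ptr-10 stood at 15.4, 9.94 and 10.1 CPM in gld2, against 0.531, 0.348 and 0.275 CPM in wt (log2 change 4.94, SE 0.31, adjusted p = 6.77e-11), and the epidermal gene che-14 at 9.1, 8.45 and 6.92 CPM in gld2, against 1.2, 0.87 and 1.13 CPM in wt (log2 change 2.93, SE 0.26, adjusted p = 9.13e-09). The most abundant member, ptc-1, known for a role in germ cell division, fell to 884, 893 and 944 CPM in gld2, against 1433, 1443 and 1356 CPM in wt (log2 change -0.64, SE 0.06, adjusted p = 4.9e-08), and with it the summed level of the list was 1485 to 1529.8 CPM in gld2 and 2049.8 to 2128 CPM in wt. Among moulting genes nas-28, an astacin protease, stood at 11.4, 10.5 and 11.1 CPM in gld2, against 0.365, 0.278 and 0.441 CPM in wt (log2 change 4.89, SE 0.23, adjusted p = 1.85e-12), whereas nas-37 fell by 1.21.

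The p38 kinases, which carry stress and infection signals, are encoded by adjacent genes on chromosome IV: pmk-3 (chromosome IV, 8139219 to 8143154), pmk-2 (chromosome IV, 8143500 to 8148648) and pmk-1 (chromosome IV, 8148794 to 8151266). Transcripts of pmk-2 stood at 55.7, 50.3 and 40.9 CPM in gld2, against 5.41, 4.11 and 4.13 CPM in wt (log2 change 3.43, SE 0.16, adjusted p = 1.08e-12). Those of pmk-3 stood at 53.1, 53 and 51 CPM in gld2, against 10.8, 10.2 and 9.86 CPM in wt (log2 change 2.35, SE 0.09, adjusted p = 2.93e-13), and those of pmk-1 at 42.3, 32.1 and 24.9 CPM in gld2, against 15.6, 14.6 and 18.7 CPM in wt (log2 change 1.02, SE 0.17, adjusted p = 4.82e-05). All of them rose without overlap, and the fitted change was smallest for pmk-1. The kinase gene sek-1, upstream of p38, rose by 0.79. The transcription factor genes skn-1 and atf-7, which act downstream, fell by 1.02 and 0.62, declines that were lost without the libraries above 4% ribosomal RNA, as was that of atf-7 without gld2 replicate 1 or wt replicate 1. Over the 18 tested genes of the p38 and JNK pathways 5 rose and 3 fell, shares near those of all genes, and 1 fell without the libraries above 4% ribosomal RNA.

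Effectors of defence were divided. The lysozyme gene lys-7 stood at 56.7, 62.2 and 56.5 CPM in gld2, against 3.98, 4.7 and 5.67 CPM in wt (log2 change 3.6, SE 0.15, adjusted p = 4.06e-12), and lys-1 and lys-8 rose by 0.64 and 0.65. Caenacin genes cnc-2 (log2 change 3.04, SE 0.78, adjusted p = 0.00619) and cnc-4 (log2 change 3.52, SE 1.0, adjusted p = 0.0119) and the antimicrobial peptide gene nlp-29 (log2 change 2.32, SE 0.42, adjusted p = 0.000188) rose. The saposin-like genes spp-17 and spp-18 fell by 1.68 and 2.1. Of 21 tested spp genes 6 rose (28.6%) and 5 fell (23.8%), against 42.4% and 9.34% of genes at 2 to 10 CPM. Of 46 tested saposin-like and caenacin genes 17 rose (37%) and 6 fell (13%), against 37.2% and 5.71% of genes at 0.5 to 2 CPM. Of 125 tested C-type lectin genes 37 rose (29.6%) and 17 fell (13.6%), against 28.8% and 20.2% of all genes, and 37.2% and 5.71% of genes at 0.5 to 2 CPM. Among them clec-79 stood at 26.3, 34.4 and 43 CPM in gld2, against 0.0332, 0.0348 and 0.248 CPM in wt (log2 change 8.19, SE 0.37, adjusted p = 5.87e-11), and the abundant clec-87 fell to 487, 529 and 522 CPM in gld2, against 971, 1121 and 1039 CPM in wt (log2 change -1.03, SE 0.07, adjusted p = 5.74e-10).

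Of 32 tested heat shock and metal response genes 10 rose (31.3%) and 9 fell (28.1%), against 28.8% and 20.2% of all genes and 27.5% and 31.3% of genes at 10 to 50 CPM. Among the 18 tested hsp genes 3 rose (16.7%) and 8 fell (44.4%), against 27.5% and 31.3% of genes at 10 to 50 CPM. The abundant chaperones hsp-1 and hsp-90, of the Hsp70 and Hsp90 classes, fell, with hsp-1 at 1490.2, 1482 and 1595 CPM in gld2, against 3085, 2902 and 2408 CPM in wt (log2 change -0.88, SE 0.16, adjusted p = 0.000407) and hsp-90 lower by 0.58. The chaperone gene hsp-70, with low levels in wt, rose by 2.52. The metallothionein gene mtl-1 stood at 8.59, 7.89 and 7.01 CPM in gld2, against 0.731, 1.04 and 0.386 CPM in wt (log2 change 3.47, SE 0.35, adjusted p = 1.1e-07). The ferritin gene ftn-1 stood at 2.2, 5.15 and 4.23 CPM in gld2, against 0.83, 0.139 and 0.0275 CPM in wt (log2 change 3.57, SE 0.59, adjusted p = 0.000153), and the superoxide dismutase gene sod-3 rose by 2.62. Among 14 tested lipase genes 7 rose (50%) and none fell, against 37.2% and 5.71% of genes at 0.5 to 2 CPM. The lysosomal lipase genes lipl-1, lipl-2 and lipl-3 rose by 2.59, 3.58 and 2.73. Fitted on the 6 libraries alone, 1 lipase gene fell.

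**Figure D5:**
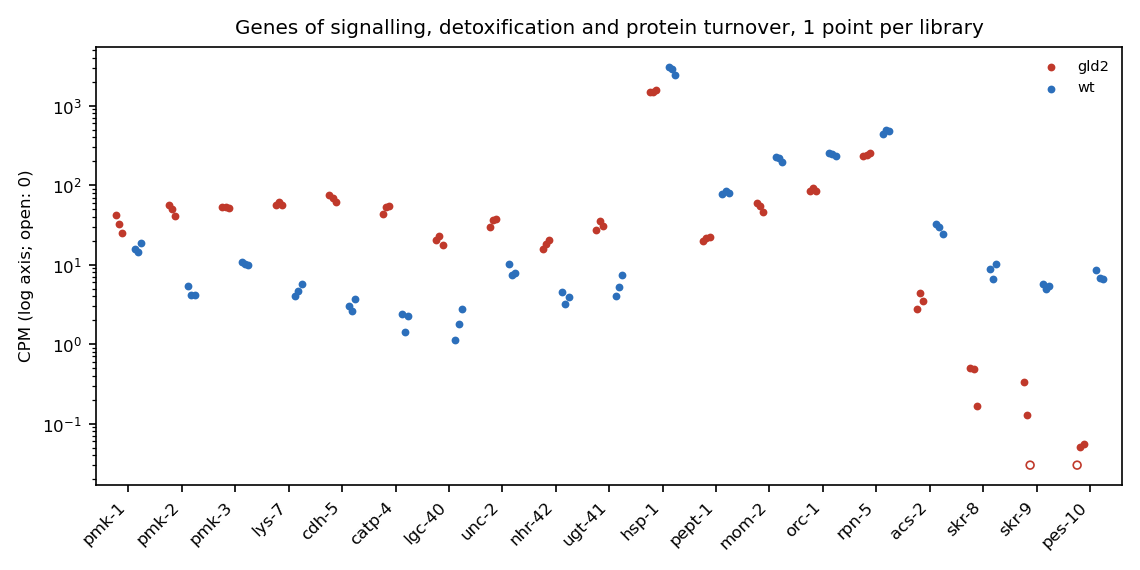
Level in each library (CPM, log axis, 1 point per library in the order of replicates 1 to 3; open points are at 0) of 19 genes named in the text, gld2 left of wt for each gene. From pmk-1 to ugt-41 all gld2 points lie above all wt points, and from hsp-1 to pes-10 all gld2 points lie below all wt points.

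Protein turnover genes included large families of substrate adaptors that recruit proteins for ubiquitination. Of 253 tested F-box genes 72 rose (28.5%) and 48 fell (19%), against 28.8% and 20.2% of all genes, but the subfamilies went apart. Of 128 tested fbxa genes 52 rose (40.6%) and 2 fell. The median level of the fbxa genes is 1.38 CPM, and of all genes at 0.5 to 2 CPM 37.2% rose. Of 92 tested fbxb genes 9 rose and 39 fell (42.4%), all 39 by at least 2-fold, with a median log2 fold change of -1.29. The median level of the fbxb genes is 0.729 CPM, in the same range, where 5.71% of all genes fell. Of the 177 genes that fell in that range 163 fell by at least 2-fold, so a call at this level mostly goes with such a change. Transcripts of fbxb-67 stood at 0.646, 0.871 and 0.667 CPM in gld2, against 4.98, 6.27 and 8.9 CPM in wt (log2 change -3.2, SE 0.3, adjusted p = 2.91e-08), and those of fbxb-84 at 0, 0.23 and 0.0556 CPM in gld2, against 3.15, 3.06 and 2.62 CPM in wt (log2 change -4.91, SE 0.84, adjusted p = 6.92e-05), both named after their values were seen. Such families hold similar copies, whose reads the counting could share out unevenly. Neither gene had a gld2 library that overlapped with wt. With the filter of 1 CPM in at least 3 libraries 13 fbxb genes fell and the median was -0.29, and without the libraries above 4% ribosomal RNA 23 fell. Without gld2 replicate 1, 5 fbxb genes rose and 4 fbxa genes fell. The number of fbxa genes that fell was also 4 with DESeq2, and 1 with somatic scaling. With the filter of 1 CPM in at least 3 libraries 21 F-box genes fell, and without the libraries above 4% ribosomal RNA 31 fell. The gene fbxa-192 rose by 1.5, as did the most abundant called fbxb gene, fbxb-7, by 1.52, whereas fbxc-32 fell to 5.51, 6.81 and 4.73 CPM in gld2, against 30.7, 35.7 and 35.9 CPM in wt (log2 change -2.58, SE 0.16, adjusted p = 6.71e-11). Of 77 tested genes with MATH or BTB domains 31 rose (40.3%) and 10 fell (13%), against 42.4% and 9.34% of genes at 2 to 10 CPM, and btb-2 had 2 counts over the wt libraries and 4.74, 7.99 and 8.48 CPM in gld2, a ratio of 332 (95% counting interval 91.6 to 2746).

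Skp1-related genes, whose products link F-box proteins to cullins, held a group that fell. The genes skr-13, skr-9, skr-8 and skr-12 lie on chromosome IV, where skr-13 starts at 17162097 and skr-12 ends at 17167792. Transcripts of skr-8 stood at 0.503, 0.487 and 0.167 CPM in gld2, against 8.77, 6.61 and 10.2 CPM in wt (log2 change -4.44, SE 0.5, adjusted p = 1.29e-06), and those of skr-9 at 0.335, 0.128 and 0 CPM in gld2, against 5.68, 4.94 and 5.4 CPM in wt (log2 change -5.03, SE 0.71, adjusted p = 1.22e-05). The neighbours skr-13 and skr-12 fell by 2.3 and 1.84, and skr-10, on the same chromosome, fell by 1.89. No gld2 library overlapped with wt for any of these 5 genes, which are similar in sequence, so that reads may be shared between them. Outside this group skr-15 rose by 0.77 and skr-20 by 0.64, the second of which was lost without the libraries above 4% ribosomal RNA.

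Proteasome subunit genes fell in 25 of 33 tested members (75.8%, against 50.2% of genes at 200 CPM or more) and rose in 1. Transcripts of rpn-5, for a lid subunit, stood at 237, 240.2 and 256 CPM in gld2, against 439.6, 497 and 481 CPM in wt (log2 change -0.95, SE 0.06, adjusted p = 1.31e-10), and those of pas-4, for a core subunit, fell by 0.78. The member that rose was rpn-6.2 (log2 change 0.48, SE 0.12, adjusted p = 0.00174), while its relative rpn-6.1 fell by 0.37, a call that was lost with somatic scaling. The median log2 fold change of the list was -0.37 with TMM and -0.25 with somatic scaling, with which 12 members fell.

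The machinery of gene expression fell together by small steps. Of 82 cytosolic ribosomal protein genes 68 fell and 1 rose, with a median of -0.34. Of 69 mitochondrial ribosomal protein genes 44 fell, and of 33 initiation factor genes 24 fell, with medians of -0.36 and -0.41. Of 32 aminoacyl-tRNA synthetase genes 19 fell and of 41 splicing factor genes 24 fell. All 12 subunit genes of RNA polymerase II were tested and 11 fell, rpb-7 the most (log2 change -1.08, SE 0.09, adjusted p = 7.1e-09) and the exception being rpb-8 (log2 change 0.07, SE 0.07, adjusted p = 0.477).

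Many genes of such levels fell. At 200 CPM or more 50.2% of all genes fell, against 82.9% of cytosolic ribosomal protein and 59.4% of tRNA synthetase genes. At 50 to 200 CPM 47.9% fell, against 72.7% of initiation factor, 58.5% of splicing factor and 91.7% of RNA polymerase II subunit genes. At 10 to 50 CPM 31.3% fell, against 63.8% of mitochondrial ribosomal protein genes. The median level of that list, 48.3 CPM, lies near the edge of the 50 to 200 CPM range, where 47.9% fell. These small declines depended on the scaling. With somatic scaling the number that fell was 27 for cytosolic ribosomal proteins, 19 for mitochondrial ribosomal proteins, 15 for initiation factors, 7 for tRNA synthetases, 11 for splicing factors and 6 for RNA polymerase II. The medians of these lists were still on the lower side, from -0.31 for RNA polymerase II to -0.11 for tRNA synthetases. The germline markers moved with them: 6 of 8 fell (cpg-1, gld-1, glh-1, pgl-1, puf-5 and rme-2), with a summed level of 3340.4 to 3532.3 CPM in gld2 and 6813.3 to 7909.7 CPM in wt, and their part in these declines was not tested.

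DNA replication and cohesin genes fell in 30 of 47 tested members (63.8%, against 50.2% of genes at 200 CPM or more) and rose in 7. The origin recognition gene orc-1 stood at 83.8, 92.7 and 85.9 CPM in gld2, against 257, 245 and 236 CPM in wt (log2 change -1.49, SE 0.06, adjusted p = 5.81e-13). The ribonucleotide reductase gene rnr-2, which supplies deoxynucleotides, fell by 1.09, and the condensin gene smc-4 rose by 0.27. With somatic scaling 18 members of this list fell. Of 48 tested histone genes 15 rose (31.3%) and 11 fell (22.9%), against 27.5% and 31.3% of genes at 10 to 50 CPM. Among linker histones hil-1 rose by 1.67 and his-24, with 1.44, 1.51 and 1.33 CPM in gld2 and 9.03, 8.7 and 10.1 CPM in wt, fell by 2.7. Argonaute and small RNA genes other than alg-3 and alg-4 mostly fell, 22 of 39 in all (56.4%, against 47.9% of genes at 50 to 200 CPM), with wago-1 at 789, 785 and 829.7 CPM in gld2, against 1632, 1862 and 1696 CPM in wt (log2 change -1.11, SE 0.07, adjusted p = 4.65e-11) and ppw-2 lower by 1.59.

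Intestinal genes fell in 13 of 24 listed members (54.2%, against 31.3% of genes at 10 to 50 CPM) and rose in 5. The peptide transporter gene pept-1 stood at 19.7, 21.7 and 22 CPM in gld2, against 77.1, 84.2 and 79.8 CPM in wt (log2 change -1.93, SE 0.1, adjusted p = 8.16e-12), and act-5, for the actin of the intestinal brush border, fell by 1.16. The digestive protease genes asp-1 and cpr-5 fell by 0.9 and 1.99, while cpr-6 did not pass the test (log2 change 0.03, SE 0.07, adjusted p = 0.713). Of 20 vacuolar ATPase genes 12 fell (60%, against 47.9% of genes at 50 to 200 CPM), with vha-6 lower by 0.58, and 7 fell with somatic scaling. The intestinal markers summed to 626 to 685 CPM in gld2 and 1116.2 to 1222.1 CPM in wt, with 6 of 7 tested lower (act-5, asp-1, elt-2, ifb-2, pept-1 and vha-6) and ges-1 higher. The yolk protein gene vit-1 stood at 1394, 1140.4 and 1373 CPM in gld2, against 4211, 3280.4 and 2860.2 CPM in wt (log2 change -1.41, SE 0.34, adjusted p = 0.0058). The declines of vit-1, vit-3 and vit-4 were lost when wt replicate 1 and gld2 replicate 3, the libraries above 4% ribosomal RNA, were left out together.

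Muscle genes fell in 13 of 48 tested members (27.1%) and rose in 3 (6.25%). Of all genes 20.2% fell and 28.8% rose, and of genes at 50 to 200 CPM 47.9% and 14.9%. The small share that fell depended on the libraries in the fit, since 23 fell when only the 6 libraries were fitted. With somatic scaling, for which this list is part of the reference, 7 rose. The number that rose was 6 without wt replicate 3, 5 with no filter and 1 without gld2 replicate 1. The integrin gene pat-3, for muscle attachment, stood at 129, 128 and 118.93 CPM in gld2, against 297, 315 and 305 CPM in wt (log2 change -1.29, SE 0.06, adjusted p = 3.38e-12), and the troponin gene tnt-3 fell by 0.73. No gene of the list rose by at least 2-fold. Outside the list, the transcription factor gene unc-120, which promotes muscle fate, rose by 2.44. The most abundant member of the list, unc-54, for a myosin heavy chain, did not pass the test (log2 change -0.31, SE 0.16, adjusted p = 0.119). Of 122 tested collagen genes 21 rose and 23 fell. Of all genes at 0.5 to 2 CPM, the range of the median collagen gene, 37.2% rose and 5.71% fell. The collagen list thus had a smaller share that rose and a larger share that fell than genes of that level. Its median log2 fold change, -0.18, was above 0 without wt replicate 3 (0.09) and with no filter (0.01). Fitted on the 6 libraries alone, 12 collagen genes rose.

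Mitochondrially encoded genes rose in 6 of 14 tested members (42.9%) and none fell, against 15% and 50.2% of genes at 200 CPM or more. COX3, for a subunit of cytochrome oxidase, stood at 2279, 2065 and 2194 CPM in gld2, against 1225, 1053 and 1371 CPM in wt (log2 change 0.84, SE 0.13, adjusted p = 7.11e-05). The mitochondrial share of the counts was also higher in all gld2 libraries, and its part in these changes was not tested. Of 43 nuclear genes of the respiratory chain 7 rose (16.3%) and 4 fell (9.3%), against 14.9% and 47.9% of genes at 50 to 200 CPM. The median log2 fold change was -0.02. These counts moved with the settings. Without ribosomal RNA and mitochondrial genes 4 rose and 9 fell, and with RLE scaling 7 fell. Without gld2 replicate 1, 4 rose. Without gld2 replicate 3, and with somatic scaling, 2 fell. The median was above 0 with somatic scaling (0.10), without gld2 replicate 3 (0.01) and without wt replicate 2 (0.03).

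Among protein-coding genes outside the 50 lists, the naming rule picked the 12 with the largest rise and the 12 with the largest fall that had a mean of at least 20 CPM, at least 1 CPM in every library and no overlap. The cadherin gene cdh-5 stood at 74.7, 69.7 and 62.2 CPM in gld2, against 2.99, 2.61 and 3.69 CPM in wt (log2 change 4.46, SE 0.18, adjusted p = 1.26e-11). The X-linked T22B7.7, which has no named function here, stood at 199, 270.1 and 265 CPM in gld2, against 5.88, 7.83 and 10.9 CPM in wt (log2 change 4.89, SE 0.25, adjusted p = 1.52e-08). The myosin gene spe-15, needed for sperm formation, rose by 2.7, and pho-11, an acid phosphatase gene, rose to 217, 237 and 244 CPM in gld2, against 18.8, 38.5 and 67.7 CPM in wt (log2 change 2.48, SE 0.36, adjusted p = 0.000157). On the lower side C55B6.1 on the X chromosome had 4.14, 3.35 and 4.2 CPM in gld2, against 40.1, 44.8 and 46 CPM in wt (log2 change -3.48, SE 0.15, adjusted p = 6.59e-13), and R03G8.6, also on the X chromosome, had 3.02, 3.53 and 4.28 CPM in gld2, against 34.8, 39.5 and 39.6 CPM in wt. The Wnt gene mom-2, which signals in the early embryo, stood at 59.8, 55.3 and 46.3 CPM in gld2, against 227, 220.0 and 199 CPM in wt (log2 change -2.0, SE 0.1, adjusted p = 4.03e-12), and endu-2, an endoribonuclease gene, fell by 2.14. Of 9 tested markers of the zygotic embryo, pes-10 was the only one that fell, at 0, 0.0512 and 0.0556 CPM in gld2, against 8.47, 6.75 and 6.61 CPM in wt (log2 change -7.59, SE 0.76, adjusted p = 1.26e-07), while end-1, hnd-1 and sdz-24, which overlaps sri-45 on the other strand, rose by 2.1, 2.11 and 1.96. These markers summed to 11.1 to 18.8 CPM in gld2 and 11.7 to 13.02 CPM in wt. The gene pes-10 and these 3 were named after their values were seen.

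By gene type, protein-coding genes rose in 4566 (29.7%) and fell in 3300 (21.5%) of 15367 tested cases, against 28.8% and 20.2% of all genes. Pseudogenes rose in 242 and fell in 64 of 762, shares of 31.8% and 8.4%. Of all genes at 0.5 to 2 CPM, the range of the median pseudogene, 37.2% rose and 5.71% fell. Of 133 tested small nucleolar RNA genes 4 rose (3.01%) and 12 fell (9.02%), and 117 did not pass the test. Of 77 tested long intergenic noncoding RNA genes 12 rose (15.6%) and 5 fell (6.49%). Of all genes under 0.5 CPM, the range of the median member of both these RNA types, 24.8% rose and 1.91% fell. Protein-coding genes that fell were expressed at a median of 61.5 CPM over the 6 libraries and those that rose at a median of 3.34 CPM.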

How the data were processed

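The deposited table of raw values holds counts per gene for WormBase identifiers. Per the submitters' processing notes, the tools were STAR 2.5.2b, Subread 1.4.6-p4 with featureCounts, DESeq2 1.18.1 and FastQC, and the build was WBcel235. The notes give no roles, and the handling of strand and of multiply matching reads is not given in the sources used here. Of 357 named genes, 75 overlap a gene on the other strand and 19 a gene on the same strand. A second deposited table holds a signal in which the authors divided the counts by 1 factor per library, and it was used only to check that division. The smallest and largest libraries of the 6 held 31567477 and 39445449 counts. Intervals (95%) and floors (3 counts over a group) cover counting error only.

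Counts that passed filterByExpr (16888 of 46739 genes) were scaled with TMM and fitted in edgeR 4.0.16 (R 4.3.3) with glmQLFit (robust) over all 15 libraries, with a mean for each of 5 genotypes, which left 10 residual degrees of freedom. The p-values are two-sided, from glmQLFTest, with Benjamini-Hochberg adjustment over all tested genes. The SE is the absolute log2 fold change over the square root of F. The common biological coefficient of variation was 0.178. The procedure was also run on simulated counts, in which few genes changed, in equal numbers up and down and none near 0 in wt. These data differ from that setting, so the run does not test the scaling or the genes near 0 in wt. Symbols and positions came from the Ensembl annotation of WBcel235, which has a record for 46484 identifiers, and 14 listed symbols matched no gene.

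Members and lists were chosen with earlier results of these data known. Besides 50 lists, 12 were added after values had been seen, as were genes outside the naming rule. The rule took gld-2, for each list the 3 called members with the largest change at a mean of at least 5 CPM without overlap and the most abundant member, the 12 genes in each direction described above, and for each of the 10 classes with the highest share in a direction (of 150 with at least 10 tested members) the called member with the largest change. The TMM scale of the CPM values was chosen after a plain scale had been tried. Replicate numbers did not pair libraries, since correlations of same-numbered deviations were -0.02, -0.01 and 0.03. Alternatives were another scaling (RLE or somatic genes), filter, tool (DESeq2 1.42.0), gene set or library set.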

Additional observations from a re-analysis of the deposited data

How the results depend on the processing

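Across 15 alternatives, no gene called here was called in the opposite direction. The number of genes that rose (4869) ran from 4096 to 5168 and the number that rose by at least 2-fold (3282) from 2653 to 3586. Of the 4 counts, 1 moved by more than 1.5 times: 2154 genes fell with somatic scaling, against 3404, and the shift of the median log2 fold change to 0.25 belongs to that scaling. Leaving out 1 library at a time gave 4347 to 4774 higher and 2983 to 3188 lower, and 3028 to 3354 and 665 to 740 by at least 2-fold. With a replicate block 4806 rose and 3379 fell, of which 4736 and 3338 were called without the block, and same-numbered libraries did not deviate together. DESeq2 called 4931 higher and 3620 lower. Without wt replicate 1 and gld2 replicate 3 together 4544 rose and 2757 fell. Of 323 named genes that were called, 17 lost the call with somatic scaling and 19 without these libraries, and at most 10 under any other alternative. The non-overlapping genes numbered 6877 higher and 2600 lower on CPM of total counts, an alternative added after the data were seen, and the genes silent in wt 345. Genes under about 0.03 CPM in wt are at the limit that 3 counts over the group allow.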
